A study of Ceratotherium simum simum with 6 samples.

Results

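The genes described here build, fold and check proteins in the endoplasmic reticulum (ER) and raise its capacity under stress. They were chosen by name, from a list of 43 names in the UniProt style that the assembly table uses in place of gene symbols. Of these, 42 were found among the 22569 named loci, which are part of 25906 loci in all. The signal peptidase subunit SPCS2 was not matched and was not analysed here. When a name stood on more than 1 locus, as for PDIA6, CALR and ATF4, the locus with the highest count was used. The 42 loci lay on 24 scaffolds, and 39 of them passed the filter on low counts and entered the test.

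Membrane and secreted proteins enter the ER through the SEC61 channel, receive N-linked sugars from oligosaccharyltransferase, and fold with the help of the Hsp70 chaperone BiP, the Hsp90 chaperone GRP94, the lectins calnexin and calreticulin, and enzymes that make disulfide bonds. Proteins that do not fold are returned to the cytosol for degradation (ERAD). When unfolded proteins build up, the sensors IRE1, PERK and ATF6 start the unfolded protein response, which acts through XBP1, ATF4 and ATF6 and raises many of the genes named here. Granulosa cells, the somatic cells around the oocyte, secrete inhibins, activins and extracellular matrix, all of which pass through this route.

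RNA-seq counts were available for granulosa cells of 2 wild-type southern white rhinoceroses, rhino 2 and rhino 1, with 3 libraries from each animal. The labels of every library give the treatment as in vivo and the time as before in vitro maturation (IVM), so no treated group was present and the contrast is between the animals. Each group is a single animal, and the labels do not say whether its libraries came from separate follicles or collections. All p-values therefore set the difference against the spread among libraries of 1 animal, and that spread may be technical.

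The library totals were 703708 to 1523904 counts in rhino 2 and 672410 to 13288936 counts in rhino 1. Rhino 1 replicate 1 was the deepest library, and its counts lay on the strand of the named genes, while those of the other 5 lay on the opposite strand. Counts of both strands were joined where the assembly modelled both, and rhino 1 replicate 1 stands apart in each result below by its strand and depth. All 9 granulosa markers had counts in every library, with sums of 9844 to 16004 CPM (counts scaled to a library total of 1000000) in rhino 2 and 15391 to 25896 CPM in rhino 1. INHA made up most of these sums. Of the 9, 4 did not overlap between the animals, where 24.4% of all loci tested did not in either direction. CP19A (180 to 260 CPM in rhino 2, 892 to 3418 CPM in rhino 1), INHBB (640 to 1496 CPM, against 2208 to 4980 CPM in rhino 1) and INHBA (165 to 213 CPM, against 373 to 803 CPM in rhino 1) lay lower in rhino 2, and MIS, anti-Mullerian hormone, lay higher (292 to 433 CPM, against 78.4 to 90.7 CPM in rhino 1). Erythrocyte markers summed to 387 to 809 CPM in rhino 2 and 1963 to 4338 CPM in rhino 1, nearly all of it HBB, with 2 of the 4 markers at 0 throughout. Theca and luteal markers summed to 29.8 to 109 CPM in rhino 2 and 164 to 235 CPM in rhino 1, with 2 of 5 at 0 (CP17A and INSL3). The others differed in direction. LSHR had 21.3 to 38 CPM in rhino 2 and 56.5 to 180 CPM in rhino 1. CP11A had 0 to 27.6 CPM in rhino 2 and 46.5 to 107 CPM in rhino 1. STAR went the other way, with overlap, at 8.53 to 58.4 CPM in rhino 2 and 0 to 12.4 CPM in rhino 1. Endothelial markers summed to 169 to 257 CPM in rhino 2 and 57.3 to 112 CPM in rhino 1, nearly all of it TIE2, with CADH5, TIE1 and VGFR2 at 0. Smooth muscle markers summed to 581 to 927 CPM in rhino 2 and 374 to 2552 CPM in rhino 1, and differed in direction, with MYH11 at 526 to 900 CPM in rhino 2 and 112 to 258 CPM in rhino 1, CNN1 at 14.2 to 24.1 CPM in rhino 2 and 76.9 to 149 CPM in rhino 1, ACTA at 0 to 41.2 CPM in rhino 2 and 39.6 to 2292 CPM in rhino 1, and DESM at 0. The sums of leukocyte markers (0 to 26.9 CPM in rhino 2, 0 to 94.8 CPM in rhino 1) and oocyte markers (0 CPM in rhino 2, 0 to 4.44 CPM in rhino 1, with 5 of 7 at 0 throughout) overlapped between the animals. Many of these markers were modelled on 1 strand only, where a 0 says nothing about the RNA in the 5 other libraries. The part of red blood cells, theca or luteal cells, endothelium, smooth muscle and the granulosa cells' own state in the differences below was not tested.

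No gene of the 39 tested passed an adjusted p of 0.05 in edgeR's quasi-likelihood test, against 0.551% of all 8532 loci tested (47 loci, 0.246% higher and 0.305% lower in rhino 2). Leaving out 1 library gave 49 such loci without rhino 1 replicate 1 and 0 to 4 without any of the others. At an unadjusted p under 0.05, 1 ER gene was higher and 7 were lower in rhino 2, where 6.42% and 6.48% of all loci were. The libraries of the animals did not overlap for 15 of the 39 genes, 2 higher and 13 lower in rhino 2, against 10.4% higher and 14% lower of all loci. The 13 include XBP1, by a gap smaller than a single count, and SDF2L and ASNS, which had libraries at 0 in rhino 2. Fold changes, given as log2 of rhino 2 over rhino 1, were positive for 19 and negative for 20 genes, with a median of -0.09, beside 0.04 for all loci. The sign turned for 9 of the 39 with 1 or another library left out (DNJC3, CREL2, PDIA6, ERO1A, DERL1, DERL2, UGGG1, XBP1 and DDIT3). DESeq2 called 5 of these genes, all lower in rhino 2 (ENPL, CALR, S61A1, DAD1 and STT3B), where it called 7.34% of all loci and 3.69% as lower. Limma-voom called 3 of the same genes (ENPL, CALR and STT3B), all lower, where it called 8.93% of all loci and 1.69% as lower. The call of these 5 genes thus depends on the tool. Without rhino 1 replicate 1, the log2 fold change was -0.57 for ENPL, -1.01 for CALR, -0.44 for S61A1 and -0.84 for STT3B, and 21 of the 39 genes were negative. That of DAD1 lay between -1.23 and -0.94 with any 1 of the 6 libraries left out.

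**Figure D1:**
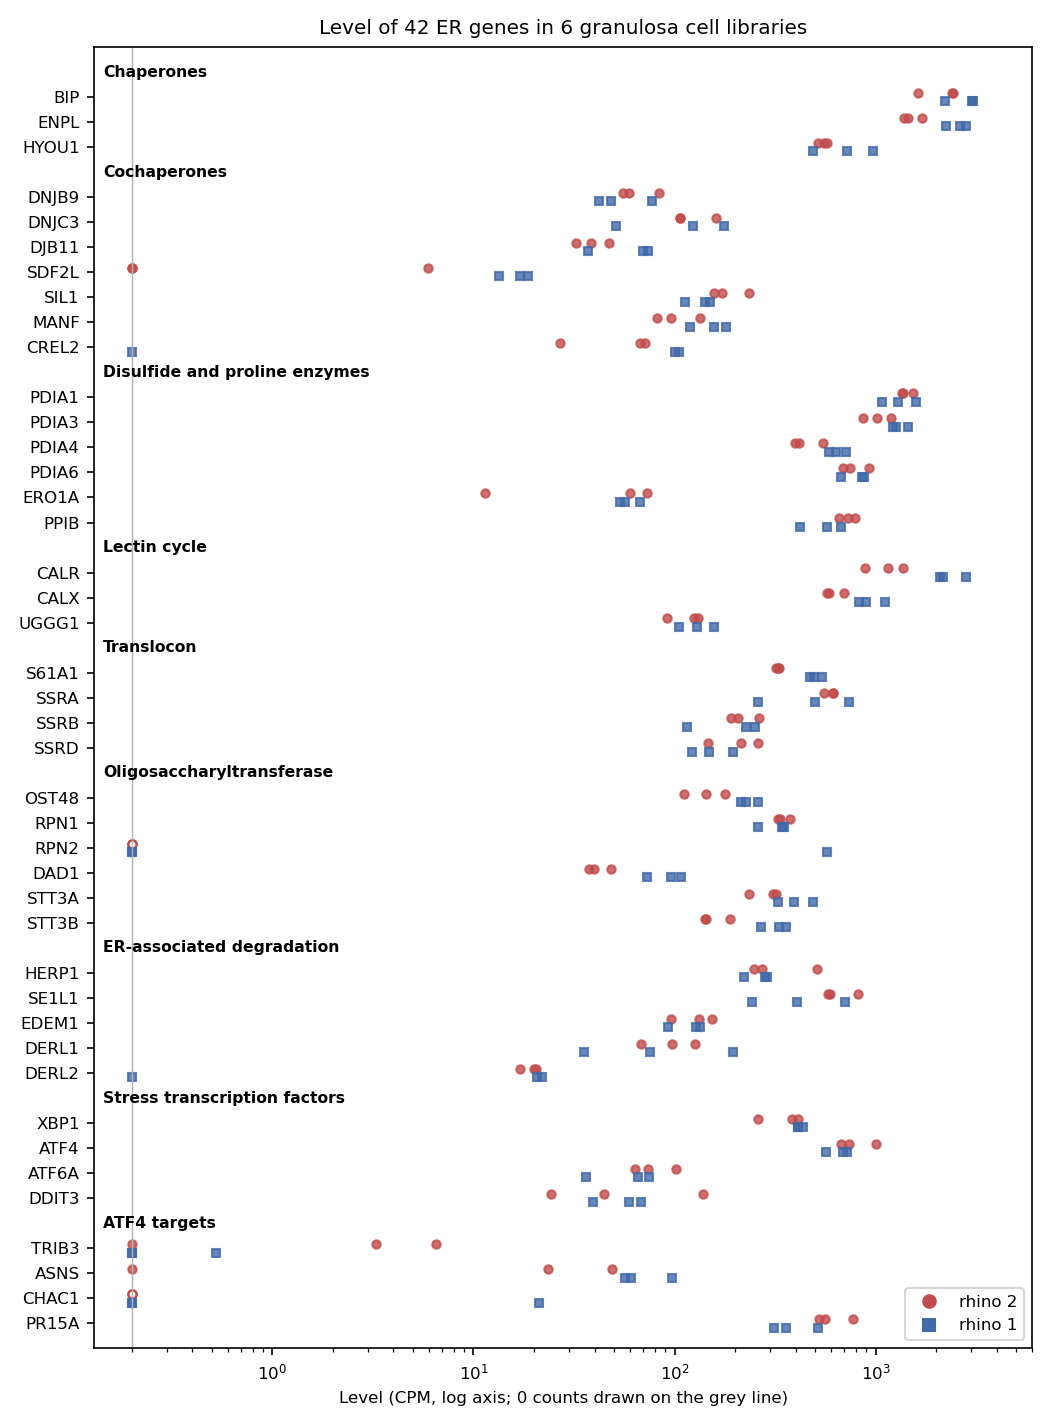
Level of each of the 42 ER genes in CPM on a log axis, with 1 point per library, rhino 2 as circles above and rhino 1 as squares below, grouped by role. A count of 0 is drawn on the grey line, with an open symbol where an animal had no count in any library. BIP, ENPL and CALR reach 3062, 2813 and 2822 CPM at the most, while SDF2L and TRIB3 stay below 20 CPM in every library.

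Together the 42 genes took 1.51%, 1.75% and 1.73% of the counts in rhino 2 replicates 1, 2 and 3, against 2.04%, 1.9% and 2.15% in rhino 1 replicates 1, 2 and 3. All libraries of rhino 2 lay below all libraries of rhino 1. The 95% Wilson interval was widest at 1.86% to 1.93%, in rhino 1 replicate 2, and covers counting error only. BIP, ENPL and CALR alone, picked after their values were seen, took 0.397%, 0.548% and 0.496% in rhino 2, against 0.796%, 0.662% and 0.846% in rhino 1. The other 39 genes took 1.11%, 1.21% and 1.24% in rhino 2, against 1.25%, 1.23% and 1.31% in rhino 1, so that rhino 2 replicate 3 lay above rhino 1 replicate 2. RPN2 and CHAC1, modelled on 1 strand only, gave counts in rhino 1 replicate 1 only, at 575 and 21.1 CPM. Both are part of that library's 2.04% and 1.25%. The 1.25% therefore covers genes that could not be counted in the other libraries, and does not show that this library lay above those of rhino 2. In bulk libraries such as these, fewer cells of a type and less RNA per cell cannot be told apart.

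Levels were compared between genes per length, as CPM per kilobase of merged exon (CPM per kb). The chaperone BIP, the lectin CALR, the chaperone ENPL and the proline isomerase PPIB led, at 920, 918, 741 and 692 CPM per kb over 6 libraries. The disulfide isomerases PDIA3 and PDIA1 followed at 591 and 587 CPM per kb, then the transcription factor ATF4 at 500 and PDIA6 at 346 CPM per kb. At the other end stood DERL2 at 13.9, ERO1A at 12, SDF2L at 11.7, ATF6A at 9.74 and TRIB3 at 0.899 CPM per kb. Among all tested loci ranked by this level, BIP was number 84, CALR 85 and ENPL 107, and 24 of the 39 genes lay in the highest 10%. Their median rank was 567 of 8532, and 4 genes ranked below the middle of the order.

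The order at the top differed between the animals. In rhino 2 it ran BIP (806 ± 168 CPM per kb, mean and SD of 3 libraries), PPIB (784 ± 72.2), PDIA1 (607 ± 42.1) and CALR (598 ± 126). In rhino 1 it ran CALR (1238 ± 213 CPM per kb), BIP (1033 ± 178), ENPL (932 ± 104) and PDIA3 (664 ± 59.3). The SDs of BIP and PPIB and those of PDIA1 and CALR overlapped in rhino 2. So did those of CALR and BIP and those of BIP and ENPL in rhino 1. Both genes of a pair come from the same libraries, so overlap of the SDs does not decide their order, which was not tested.

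**Figure D2:**
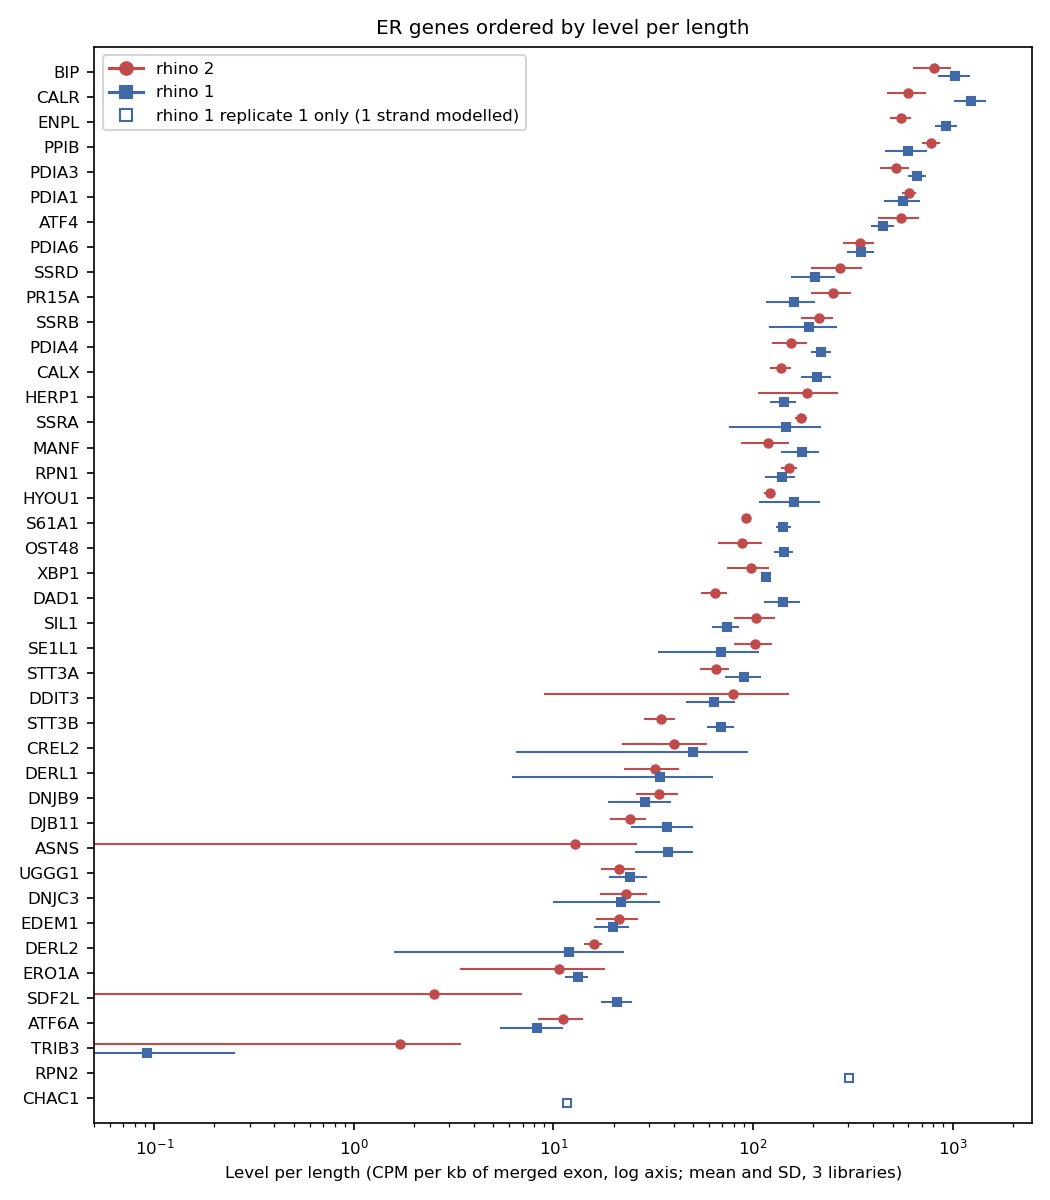
Level per length of each ER gene in CPM per kb of merged exon on a log axis, as mean and SD of 3 libraries, rhino 2 as circles above and rhino 1 as squares below. Genes run from the highest to the lowest mean of 6 libraries, with RPN2 and CHAC1, measured in rhino 1 replicate 1 only, at the bottom, and SD bars that reach below the axis end at its left edge. BIP and CALR lead at 920 and 918 CPM per kb.

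The general chaperones were all abundant and all had negative fold changes, also with any library left out. Their median was -0.33, or -0.15 without rhino 1 replicate 1, where HYOU1 was at -0.03. BIP (HSPA5), the Hsp70 of the ER, had 1634, 2409 and 2415 CPM in rhino 2 replicates 1, 2 and 3, against 3062, 2211 and 3004 CPM in rhino 1 replicates 1, 2 and 3, the order used for all values below. Its libraries overlapped, since rhino 1 replicate 2 lay below rhino 2 replicates 2 and 3, and its log2 fold change was -0.26 (SE 0.27, adjusted p = 0.863). ENPL (HSP90B1, GRP94), the Hsp90 of the ER, which folds integrins and Toll-like receptors among others, had 1450, 1701 and 1386 CPM in rhino 2, against 2813, 2253 and 2634 CPM in rhino 1. Every library of rhino 2 lay below every library of rhino 1. The log2 fold change of ENPL was -0.67 (SE 0.21) with an adjusted p of 0.224 by edgeR, 0.002 by DESeq2 and 0.037 by limma-voom. HYOU1, a large Hsp70 relative that helps BiP release ADP, had 575, 517 and 554 CPM in rhino 2, against 969, 491 and 724 CPM in rhino 1. The lowest HYOU1 value of all, 491 CPM, was in rhino 1, and the animals overlapped.

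Among the partners of BiP, 3 of 7 had a positive and 4 a negative fold change, and between 2 and 4 were positive with a library left out. SIL1, a nucleotide exchange factor of BiP, had 157, 236 and 173 CPM in rhino 2, against 150, 113 and 141 CPM in rhino 1. It is 1 of the 2 genes whose libraries were all higher in rhino 2, by a narrow gap between 157 and 150 CPM, and its log2 fold change of 0.58 (SE 0.25) had an adjusted p of 0.412. SDF2L (SDF2L1), which works with the J-domain protein ERdj3, had 5.91, 0 and 0 CPM in rhino 2, against 17.1, 13.4 and 18.6 CPM in rhino 1. The only counts of SDF2L in rhino 2 were 9, in replicate 1 (95% Wilson interval 3.11 to 11.2 CPM), and 3 counts, the limit that a 0 allows, are worth 4.26 and 2.78 CPM in its replicates 2 and 3. Its log2 fold change of -2.85 (SE 1.69, adjusted p = 0.623) rests on these few counts and reached -8.76 with 1 library left out.

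Other J-domain proteins overlapped between the animals. DNJB9 (DNAJB9, ERdj4) had 59.7, 55.4 and 83.5 CPM in rhino 2, against 42.1, 77.3 and 48.3 CPM in rhino 1, and DNJC3 (DNAJC3, p58IPK) had 106, 161 and 107 CPM, against 50.9, 177 and 124 CPM in rhino 1. Both were lowest in rhino 1 replicate 1. DJB11 (DNAJB11, ERdj3) had 32.2, 38.4 and 47.3 CPM in rhino 2, against 73.7, 37.2 and 69.7 CPM in rhino 1. MANF, a small secreted protein that binds BiP, had 82, 134 and 96.4 CPM in rhino 2, against 119, 158 and 180 CPM in rhino 1, and only rhino 2 replicate 2 reached the range of rhino 1. CREL2 (CRELD2), a secreted protein made under ER stress, had 26.9, 71.1 and 67.7 CPM in rhino 2, against 101, 0 and 105 CPM in rhino 1. The 0 of CREL2 in rhino 1 replicate 2 stands where the other libraries of that animal predict 69.2 counts, and this library held 601 of 10525 such loci at 0 with 20 or more counts predicted, the highest number of the 6.

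Disulfide and proline enzymes were split evenly, with 3 positive and 3 negative fold changes, or 2 and 4 without rhino 1 replicate 1. PDIA1 (P4HB), protein disulfide isomerase and also a subunit of collagen prolyl hydroxylase, had 1347, 1530 and 1377 CPM in rhino 2, against 1081, 1295 and 1594 CPM in rhino 1. PDIA6 had 686, 932 and 745 CPM in rhino 2, against 673, 879 and 855 CPM in rhino 1. For both of these isomerases the libraries of the animals interleaved. PDIA3 (ERp57), the isomerase that works on proteins held by calnexin and calreticulin, had 871, 1187 and 1011 CPM in rhino 2, against 1264, 1225 and 1445 CPM in rhino 1. PDIA4 (ERp72) had 415, 550 and 399 CPM in rhino 2, against 635, 714 and 584 CPM in rhino 1. Neither PDIA3 nor PDIA4 overlapped between the animals, rhino 2 being lower, and their log2 fold changes were -0.26 (SE 0.20, adjusted p = 0.756) and -0.40 (SE 0.20, adjusted p = 0.506).

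PPIB (cyclophilin B), a proline isomerase that serves collagen, had 658, 733 and 792 CPM in rhino 2, against 422, 576 and 671 CPM in rhino 1. Only rhino 1 replicate 3, at 671 CPM, reached the range of rhino 2. ERO1A, the oxidase that recharges disulfide isomerases, had 72.8, 11.4 and 60.3 CPM in rhino 2, against 67, 53.5 and 56.6 CPM in rhino 1. Rhino 2 replicate 2 stood well below the other 5 libraries for ERO1A.

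In the lectin cycle, which holds sugar-bearing proteins until they fold, all 3 fold changes were negative, but that of UGGG1 (-0.09) was 0.12 without rhino 1 replicate 1 and 0.07 without rhino 2 replicate 3. CALR, calreticulin, lies on scaffold 40 from 1094840 to 1097971 and is the soluble lectin chaperone. It had 888, 1366 and 1159 CPM in rhino 2, against 2084, 2159 and 2822 CPM in rhino 1, without overlap. The log2 fold change of CALR was -0.95 (SE 0.25), with an adjusted p of 0.148 by edgeR, 8.1e-04 by DESeq2 and 0.028 by limma-voom. CALX (CANX), calnexin, its membrane-bound relative, had 700, 590 and 575 CPM in rhino 2, against 1114, 824 and 896 CPM in rhino 1. The animals did not overlap for CALX, with a log2 fold change of -0.51 (SE 0.21, adjusted p = 0.367). UGGG1 (UGGT1), the folding sensor that adds glucose back to unfolded glycoproteins, had 125, 131 and 91.8 CPM in rhino 2, against 158, 129 and 105 CPM in rhino 1. Its values overlapped, and its assembled gene also carries the name DACT2, so its counts cannot be given to UGGG1 alone.

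Of the 4 translocon genes tested, 3 had a positive and 1 a negative fold change. Their median was 0.32, or 0.04 without rhino 1 replicate 1, where SSRA was at 0.06, SSRB at 0.02 and SSRD at 0.37. S61A1 (SEC61A1), the pore subunit of the channel, had 327, 330 and 319 CPM in rhino 2, against 543, 492 and 472 CPM in rhino 1. Its libraries were tight within each animal, with SDs of 5.65 CPM in rhino 2 and 36.8 CPM in rhino 1, and did not overlap. The log2 fold change of S61A1 was -0.53 (SE 0.17), with an adjusted p of 0.235 by edgeR, 0.005 by DESeq2 and 0.067 by limma-voom. The TRAP complex, which sits beside the channel and helps some proteins enter, was measured by its alpha, beta and delta subunits. SSRA (SSR1) had 616, 611 and 553 CPM in rhino 2, against 261, 498 and 736 CPM in rhino 1, SSRB (SSR2) had 192, 206 and 264 CPM, against 116, 250 and 228 CPM in rhino 1, and SSRD (SSR4) had 146, 259 and 213 CPM, against 122, 149 and 195 CPM in rhino 1. All 3 overlapped between the animals, and all 3 were lowest of the 6 libraries in rhino 1 replicate 1.

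Oligosaccharyltransferase, singled out after the values were seen, had the highest count of separated genes of any role, 4 of 5 tested. All 4 were lower in rhino 2, where 14% of all loci were separated in that direction. That share makes no allowance for picking 1 role among several. STT3B, the catalytic subunit that adds sugars to sites missed during entry, lies on scaffold 5 from 57285036 to 57397792. It had 142, 144 and 189 CPM in rhino 2, against 331, 358 and 268 CPM in rhino 1. The log2 fold change of STT3B was -0.91 (SE 0.21), with the lowest adjusted p of the 39 genes, 0.121 by edgeR, and 0.002 by DESeq2 and 0.029 by limma-voom. STT3A, the catalytic subunit that works as the chain enters, had 320, 310 and 236 CPM in rhino 2, against 486, 393 and 329 CPM in rhino 1. Its separation was narrow, 320 against 329 CPM, and its log2 fold change was -0.39 (SE 0.23, adjusted p = 0.623).

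Shared subunits of the complex differed among themselves. DAD1 had 37.4, 39.8 and 48.2 CPM in rhino 2, against 95.6, 72.9 and 108 CPM in rhino 1, without overlap. Its log2 fold change, -1.05 (SE 0.29), had an adjusted p of 0.175 by edgeR, 0.020 by DESeq2 and 0.062 by limma-voom. OST48 (DDOST) had 112, 179 and 143 CPM in rhino 2, against 226, 214 and 260 CPM in rhino 1, with a log2 fold change of -0.60 (SE 0.24, adjusted p = 0.357). RPN1 (ribophorin I) had 335, 327 and 376 CPM in rhino 2, against 343, 259 and 349 CPM in rhino 1, and its libraries overlapped. RPN1 lies 533 kb from S61A1 on scaffold 5. RPN2 (ribophorin II) was modelled on 1 strand only, so that its 7644 counts, or 575 CPM (95% Wilson interval 562 to 588), were in rhino 1 replicate 1 alone and no comparison could be made.

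**Figure D3:**
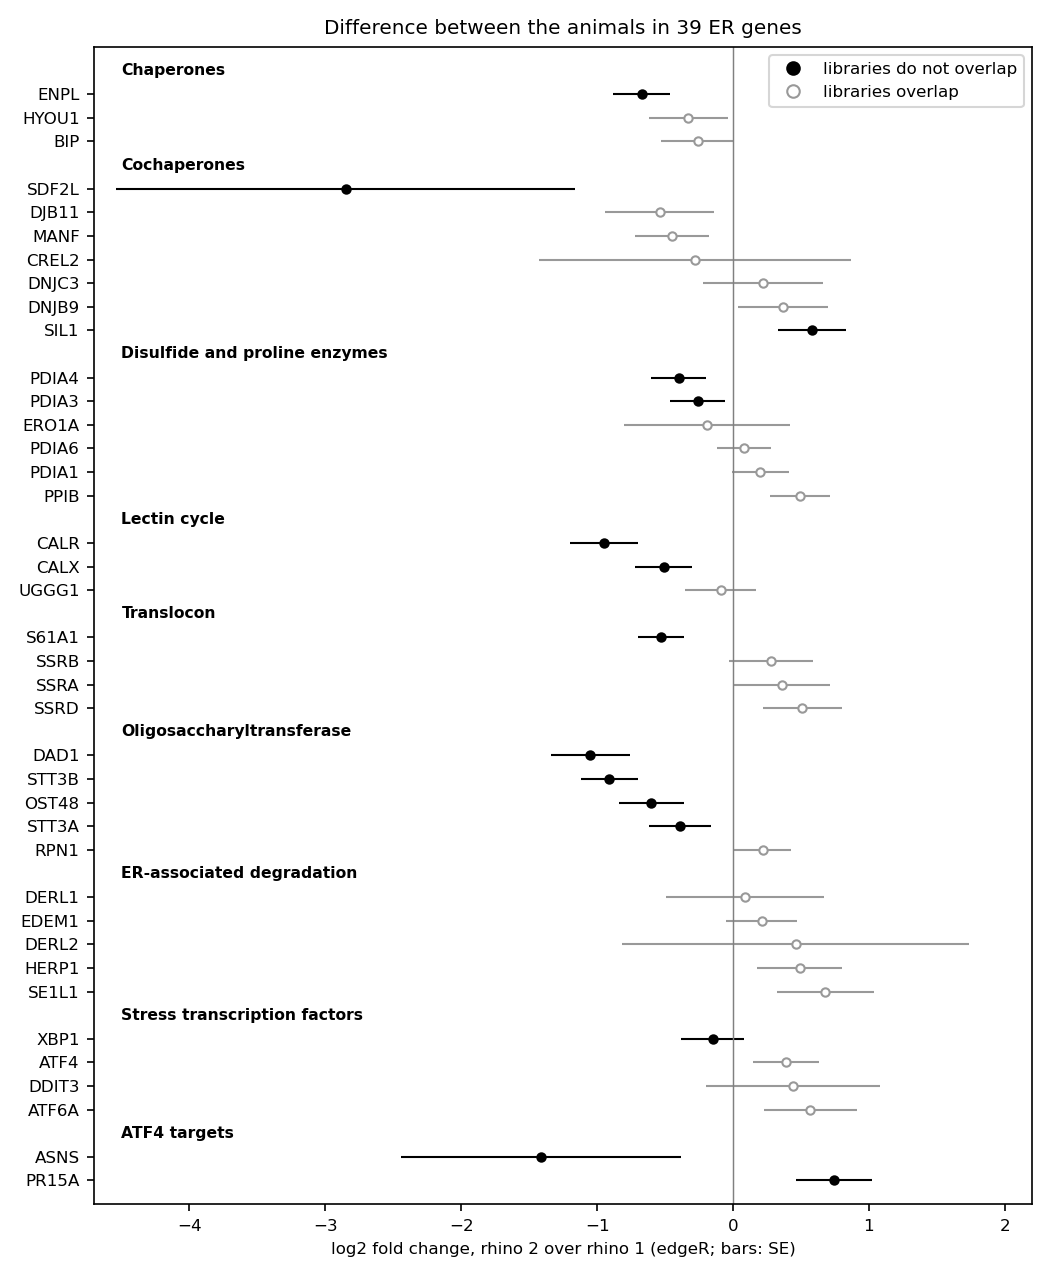
Log2 fold change of rhino 2 over rhino 1 for the 39 tested ER genes, as points with SE bars from edgeR, grouped by role. Filled points mark genes whose libraries do not overlap between the animals. The 4 filled oligosaccharyltransferase genes lie between -1.05 and -0.39, and the 5 ER-associated degradation genes have open points to the right of 0, of which DERL1 at 0.09 was -0.31 without rhino 1 replicate 1.

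The 5 genes of ER-associated degradation had positive fold changes, with a median of 0.46, or 0.09 without rhino 2 replicate 3. All 5 overlapped between the animals, and none had an unadjusted p under 0.05. With a library left out, 4 or 5 of them were positive, since DERL1 turned from 0.09 to -0.31 without rhino 1 replicate 1, to -0.08 without rhino 1 replicate 3 and to -0.13 without rhino 2 replicate 1, and DERL2 turned from 0.46 to -0.11 without rhino 1 replicate 2. SE1L1 (SEL1L), the adaptor of the HRD1 ubiquitin ligase, had 818, 578 and 592 CPM in rhino 2, against 243, 702 and 409 CPM in rhino 1. HERP1 (HERPUD1), which assembles that ligase complex and is made under ER stress, had 271, 249 and 512 CPM in rhino 2, against 222, 281 and 288 CPM in rhino 1. Its value in rhino 2 replicate 3 stood far above the other 5 libraries. EDEM1, which marks misfolded glycoproteins by mannose trimming, had 133, 96.6 and 153 CPM in rhino 2, against 128, 134 and 92.4 CPM in rhino 1. The derlins, membrane proteins of the exit route, were less even. DERL1 had 126, 68.2 and 97.4 CPM in rhino 2, against 35.6, 196 and 75.9 CPM in rhino 1. DERL2 had 17.1, 19.9 and 20.4 CPM in rhino 2, against 22, 0 and 20.7 CPM in rhino 1, the 0 again in rhino 1 replicate 2, where 14.3 counts were predicted.

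The transcription factors of the stress response were expressed in every library, and none passed the test. XBP1, whose RNA is spliced by IRE1, had 261, 385 and 412 CPM in rhino 2, against 412, 412 and 436 CPM in rhino 1. The highest value of rhino 2, in replicate 3, fell short of the lowest of rhino 1 by less than a single count there (0.927 CPM). The log2 fold change of XBP1 was -0.15 (SE 0.23, adjusted p = 0.929). Leaving out rhino 2 replicate 1 turned it to 0.03. These counts do not tell spliced from unspliced XBP1. ATF4, the factor translated when eIF2 alpha is phosphorylated, had 670, 742 and 1008 CPM in rhino 2, against 718, 565 and 686 CPM in rhino 1. The log2 fold change of ATF4 was 0.39 (SE 0.24, adjusted p = 0.628), and the animals overlapped. ATF6A (ATF6), the membrane-bound factor freed by proteolysis, had 102, 63.9 and 74.2 CPM in rhino 2, against 36.3, 74.4 and 65.5 CPM in rhino 1. DDIT3 (CHOP), linked to cell death under lasting stress, had 44.6, 24.2 and 139 CPM in rhino 2, against 39.5, 59.5 and 68.3 CPM in rhino 1. Rhino 2 held both the highest and the lowest DDIT3 value, its log2 fold change was 0.44 (SE 0.64, adjusted p = 0.926), and without rhino 2 replicate 3 it was -0.58.

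Of the targets of ATF4, PR15A (PPP1R15A, GADD34), which directs a phosphatase to eIF2 alpha and restores translation, had 526, 561 and 771 CPM in rhino 2, against 515, 360 and 312 CPM in rhino 1. It was the largest positive fold change among the 39 genes and the other gene with all rhino 2 libraries higher, by 526 against 515 CPM at the narrowest. The log2 fold change of PR15A was 0.74 (SE 0.28, adjusted p = 0.321), and 1.02 without rhino 1 replicate 1. ASNS, asparagine synthetase, had 23.6, 0 and 49.1 CPM in rhino 2, against 56.4, 96.7 and 60.7 CPM in rhino 1. The animals did not overlap for ASNS, but the 0 stands where 25.6 counts were predicted, and its log2 fold change of -1.41 had an SE of 1.03 and an adjusted p of 0.732. It was -0.85 without rhino 2 replicate 2, which holds the 0, and -2.39 without rhino 2 replicate 3. TRIB3, a pseudokinase that restrains this arm, had 3.28, 0 and 6.49 CPM in rhino 2, against 0.527, 0 and 0 CPM in rhino 1, or 5, 0 and 7 counts in rhino 2, against 7, 0 and 0 counts in rhino 1, which were too few to test. CHAC1, an enzyme that degrades glutathione, was modelled on 1 strand only and had 280 counts, or 21.1 CPM (95% Wilson interval 18.7 to 23.7), in rhino 1 replicate 1.

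**Figure D4:**
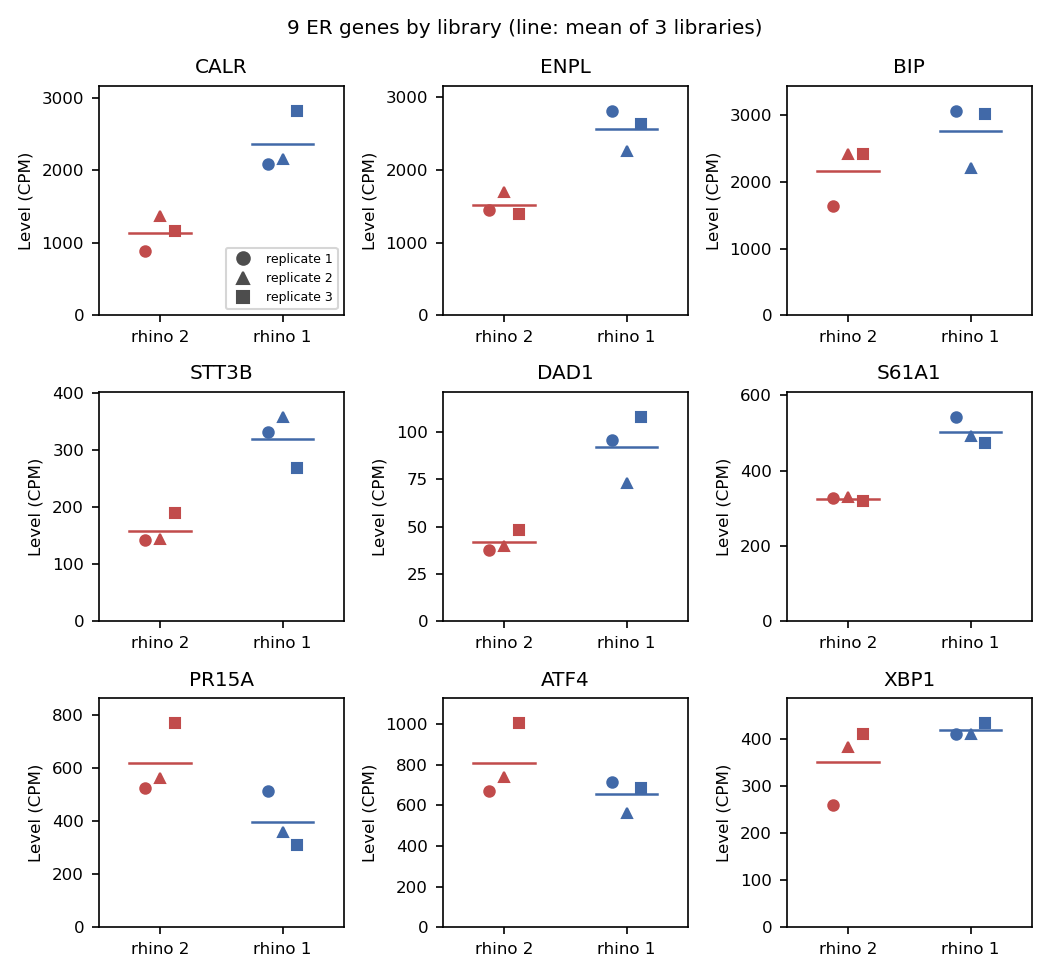
Levels of 9 ER genes in CPM by library, with linear axes from 0, rhino 2 at the left and rhino 1 at the right of each panel, symbols by replicate and a line at the mean of 3 libraries. CALR, ENPL, STT3B, DAD1 and S61A1 do not overlap between the animals, with rhino 2 lower. PR15A is separated the other way, by 526 against 515 CPM, and BIP and ATF4 overlap.

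Single libraries also stood out across the genes. Rhino 2 replicate 3 was the highest of the 6 for 9 of the 39 tested genes, where it was the highest for 12.2% of all loci. The 9 were DNJB9, PPIB, SSRB, RPN1, HERP1, EDEM1, ATF4, DDIT3 and PR15A, while BIP, XBP1, CREL2, MANF, SDF2L and ASNS were highest in a library of rhino 1. Rhino 1 replicate 3 was the highest for 10 genes and the lowest for 2, where these shares were 16% and 7.3% of all loci. Rhino 1 replicate 1, the deepest library and the one with counts on the other strand, was the lowest for 12 genes and the highest for 9, where these shares were 20.7% and 19.7% of all loci. The part of strand and depth in these orders was not tested.

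The rest of the pathway was followed with 7 further lists of 90 genes, of which 85 were matched and 76 tested. None passed the threshold by edgeR, 7 were higher and 6 lower in rhino 2 at an unadjusted p under 0.05 (6.42% and 6.48% of all loci), and the median log2 fold change was 0.11. Libraries did not overlap for 9 genes higher and 12 lower, where 10.4% and 14% of all loci were separated. The sign turned for 25 of the 76 with 1 or another library left out. DESeq2 called 3 higher and 2 lower, against 3.65% and 3.69% of all loci, and limma-voom called 4 higher and 1 lower, against 7.24% and 1.69% of all loci.

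Sensors and regulators had 9 of 10 tested fold changes positive, with a median of 0.34, and 7 of 10 without rhino 1 replicate 2. CR3L2 (CREB3L2), an ER-bound transcription factor of the secretory pathway, had 602, 549 and 479 CPM in rhino 2, against 123, 198 and 245 CPM in rhino 1. Its lowest value in rhino 2 was well above the highest in rhino 1, and its log2 fold change was 1.63 (SE 0.27). The adjusted p of CR3L2 was 0.058 by edgeR, 1.5e-06 by DESeq2 and 0.007 by limma-voom, and among loci modelled on both strands only, it passed by edgeR. MBTP1, the protease that cleaves ATF6, had 167, 226 and 166 CPM in rhino 2, against 154, 132 and 144 CPM in rhino 1, a log2 fold change of 0.47 (SE 0.22, adjusted p = 0.468). ERN1, which encodes IRE1 and is named here after its values were seen, had 76.8, 17.1 and 54.7 CPM in rhino 2, against 7.45, 8.92 and 20 CPM in rhino 1. It overlapped through rhino 2 replicate 2 and had a log2 fold change of 2.13 (SE 0.73), with an adjusted p of 0.263 by edgeR, 0.067 by DESeq2 and 0.008 by limma-voom.

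The signal recognition particle and translocon list had 6 positive and 9 negative fold changes of 15. TRAM1, a membrane protein beside the channel, had 182, 173 and 162 CPM in rhino 2, against 276, 251 and 286 CPM in rhino 1. Its log2 fold change of -0.56 (SE 0.18) resembles in size that of S61A1. The adjusted p of TRAM1 was 0.235 by edgeR, 0.010 by DESeq2 and 0.076 by limma-voom. SEC63, the J-domain protein of the channel, had 178, 144 and 134 CPM in rhino 2, against 107, 74.4 and 124 CPM in rhino 1, with a log2 fold change of 0.66 (SE 0.27, adjusted p = 0.373). SERP1, which stabilises membrane proteins under stress, had 131, 134 and 124 CPM in rhino 2, against 28.7, 119 and 120 CPM in rhino 1. Its log2 fold change of 0.68 (SE 0.50, adjusted p = 0.735) was 0.24 without rhino 1 replicate 1. In the signal peptidase list, 3 of 4 fold changes were negative, or 1 of 4 without rhino 1 replicate 3, and SPCS3 had 473, 577 and 397 CPM in rhino 2, against 739, 579 and 793 CPM in rhino 1, at -0.45 (SE 0.23, adjusted p = 0.530).

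N-glycosylation genes outside the main list had 5 positive and 3 negative fold changes, or 3 and 5 without rhino 1 replicate 1 or without rhino 2 replicate 2. OSTC, a subunit found with STT3A, had 52.5, 59.7 and 58.4 CPM in rhino 2, against 78.9, 112 and 81.4 CPM in rhino 1, a log2 fold change of -0.56 (SE 0.25, adjusted p = 0.415). TM258 (TMEM258), a small subunit, had 19, 25.6 and 36.2 CPM in rhino 2, against 36.3, 38.7 and 50.4 CPM in rhino 1, at -0.53 (SE 0.44, adjusted p = 0.782). TUSC3, an oxidoreductase subunit found with STT3B, had the opposite sign, with 37.4, 66.8 and 39.9 CPM in rhino 2, against 21.8, 29.7 and 16.6 CPM in rhino 1, and a log2 fold change of 1.19 (SE 0.45, adjusted p = 0.320).

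Further folding genes had 10 positive and 6 negative fold changes of 16, or 8 and 8 without rhino 1 replicate 2. FKB10 (FKBP10), a proline isomerase that serves collagen, had 283, 367 and 347 CPM in rhino 2, against 124, 195 and 165 CPM in rhino 1, without overlap. Its log2 fold change of 1.16 (SE 0.22) had an adjusted p of 0.076 by edgeR, 9.7e-05 by DESeq2 and 0.012 by limma-voom. ERP29, a chaperone of the disulfide isomerase family, had 81.4, 88.1 and 105 CPM in rhino 2, against 143, 146 and 217 CPM in rhino 1, at -0.78 (SE 0.26, adjusted p = 0.244). GLU2B (PRKCSH), the beta subunit of glucosidase II, had 479, 504 and 497 CPM in rhino 2, against 434, 437 and 455 CPM in rhino 1, a small and even difference of 0.26 (log2, SE 0.16, adjusted p = 0.646).

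Other degradation genes had 9 positive and 5 negative fold changes, with a median of 0.32, or 0.16 without rhino 1 replicate 1. OS9, a lectin that brings glycoproteins to the HRD1 complex, had 287, 250 and 313 CPM in rhino 2, against 197, 164 and 170 CPM in rhino 1. The animals did not overlap for OS9, and its log2 fold change of 0.77 (SE 0.20) had an adjusted p of 0.146 by edgeR, 0.007 by DESeq2 and 0.050 by limma-voom. TERA (VCP, p97), the ATPase that pulls proteins out of the membrane, had 473, 513 and 504 CPM in rhino 2, against 868, 692 and 838 CPM in rhino 1, a log2 fold change of -0.59 (SE 0.19) with an adjusted p of 0.237 by edgeR, 0.006 by DESeq2 and 0.061 by limma-voom. MA1B1 (MAN1B1), a mannosidase, had 68.9, 69.6 and 52.9 CPM in rhino 2, against 51.5, 40.2 and 46.9 CPM in rhino 1, at 0.55 (SE 0.29, adjusted p = 0.557).

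Targets of ATF4 and the integrated stress response outside the main list had 3 positive and 6 negative fold changes of 9 tested, with a median of -0.44, or -0.04 without rhino 1 replicate 2. Of the 9, 4 were separated, all lower in rhino 2, where 14% of all loci were. SERA (PHGDH), the first enzyme of serine synthesis, had 0, 25.6 and 47.3 CPM in rhino 2, against 184, 143 and 148 CPM in rhino 1. SERC (PSAT1), the next enzyme, had 0, 0 and 4.64 CPM in rhino 2, against 15.7, 53.5 and 24.8 CPM in rhino 1. The rhino 2 libraries lay below the rhino 1 libraries for both, with log2 fold changes of -2.63 (SE 1.10, adjusted p = 0.380) and -4.14 (SE 1.63, adjusted p = 0.341). With a library left out, these ranged from -3.68 to -2.01 for SERA and from -9.71 to -3.51 for SERC, both lowest without rhino 2 replicate 3, which held all 5 counts of SERC in that animal. For SERA in rhino 2 replicate 1 the other libraries of the animal predict 55.5 counts where 0 were listed. GLYM (SHMT2), the mitochondrial serine hydroxymethyltransferase, named here after its values were seen, had 35.4, 59.7 and 29.7 CPM in rhino 2, against 87.4, 99.6 and 84.9 CPM in rhino 1. Its log2 fold change was -1.03 (SE 0.33), with an adjusted p of 0.242 by edgeR, 0.065 by DESeq2 and 0.037 by limma-voom. ATF5, a transcription factor of this response, had 9.19, 0 and 9.27 CPM in rhino 2, against 12, 28.3 and 19.3 CPM in rhino 1, at -1.54 (SE 1.34, adjusted p = 0.813). The positive fold changes in this list were 0.60 for CEBPG, 0.41 for CEBPB and 0.13 for 4F2. Of the 15 genes matched in the list, the rest were not tested. Among them NUPR1 had 10.5, 0 and 23.2 CPM in rhino 2, against 1.43, 0 and 0 CPM in rhino 1. MTDC, modelled on 1 strand only, and XCT had counts in rhino 1 replicate 1 alone, and SESN2, VLDLR and STC2 had none.

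**Figure D5:**
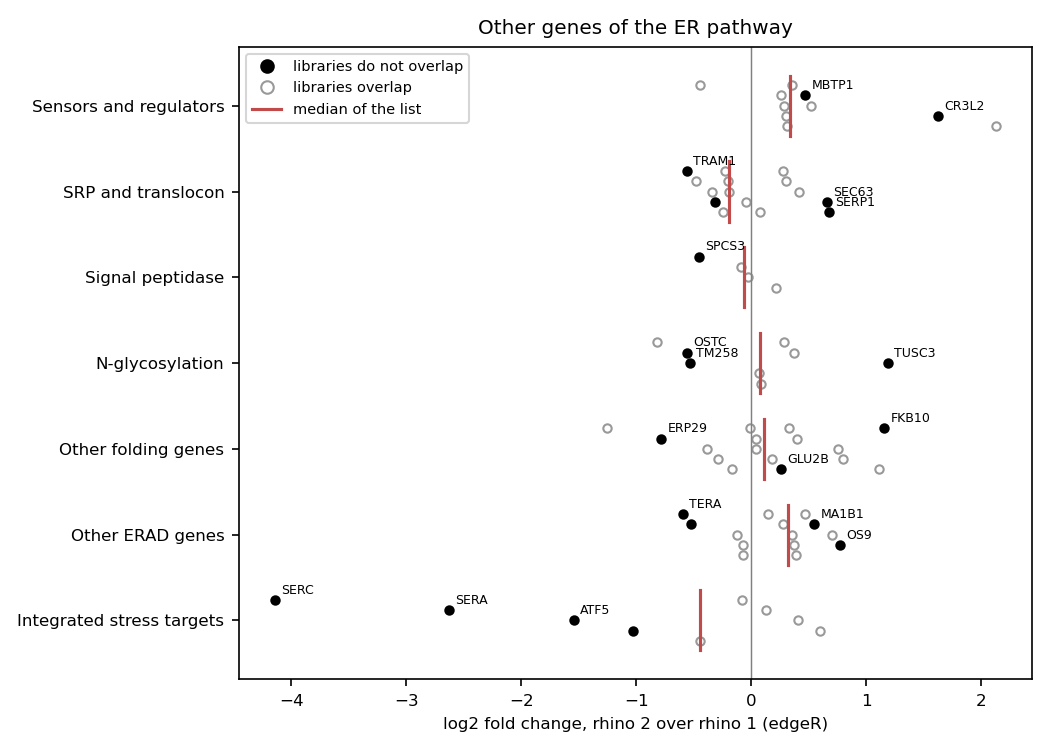
Log2 fold change of rhino 2 over rhino 1 from edgeR for the 76 tested genes of the 7 further lists, with 1 point per gene and a line at the median of each list. Filled points mark genes whose libraries do not overlap between the animals, and named genes are those the text describes by the naming rule. CR3L2 lies at 1.63 and SERC at -4.14, while the medians lie between -0.44 and 0.34.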

How the data were processed

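Per the file headers, the authors deposited raw counts of reads as whole numbers, for assembled transcripts in 5 files and for assembled genes in 1. Trimmomatic, HISAT2 and StringTie are named in the submitters' processing notes. For their settings, the strand setting and the genome build the entry is: not given in the sources used here. The labels name the PicoPure and NEBNext Ultra II RNA kits.

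Transcript counts were summed to 40656 assembled genes. An unnamed gene facing a named one on the other strand was joined to it where it covered at least 50% of the shorter exonic length (bedtools 2.31.1), which joined 14075, and those left over were joined to each other by the same rule, which gave 25906 loci. Of the 42 genes found, 40 were modelled on both strands. CPM was computed here from the deposited counts by library total. In rhino 1 replicate 1 a single count is worth 0.0753 CPM, in rhino 1 replicate 2 it is worth 1.49 CPM. The test was that of edgeR 4.0.16 under R 4.3.3 (scaling by TMM, filterByExpr, quasi-likelihood test, two-sided, Benjamini-Hochberg over 8532 loci, threshold 0.05), and fold changes are rhino 2 over rhino 1. The script was tested on simulated data. DESeq2 1.42.0, limma-voom (limma 3.58.1), other scalings and filters, a replicate block, each library left out and other ways of joining strands were alternatives. The joining of unnamed genes only with named ones was added after seeing the data.

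The genes, lists and tests were chosen with earlier results of these data known. Every gene of the list is named. Fold changes are given where the libraries of the animals do not overlap, and in any case for BIP, XBP1, ATF4 and DDIT3, and, per further list, for up to 3 genes without overlap by size of fold change. The counts predicted for a library at 0 come from the other libraries of the animal and the library's total. Of the 42 symbols, 41 matched the RefSeq gene table of assembly ASM5780239v1. Sequence features of promoters and proteins were not analysed here. Coordinates are those of the deposited transcript table, counted from 1. Intervals cover counting error only.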

Additional observations from a re-analysis of the deposited data

Results flagged for a closer look

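The name PDIA6 also stands on 2 loci with a single exon on scaffold X, which enter no comparison above, and both held counts. The locus from 60993189 to 60993521 had 9.19, 14.2 and 7.42 CPM in rhino 2, against 13, 0 and 13.1 CPM in rhino 1. The locus from 60993754 to 60994521 was modelled on 1 strand only and had 49.7 CPM in rhino 1 replicate 1. The multi-exon PDIA6 locus on scaffold 11 had 673 to 932 CPM over the 6 libraries, and how reads were shared among the copies was not tested.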

How the results depend on the processing

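The number of loci past the threshold was 47 in the fit as reported, 353 with no filter on low counts, 626 by DESeq2, 762 by limma-voom, 20 where unnamed genes were not joined with each other, 128 among loci modelled on both strands only, and 0 to 49 with a library left out. On the genes as deposited edgeR called 0 loci, with 239 at an unadjusted p under 0.05. Of the 42 ER genes it called 0 as reported, 1 with no filter (RPN2, counted in rhino 1 replicate 1 alone), 5 by DESeq2 and 3 by limma-voom, and of the further lists 0 as reported, 2 with no filter, 5 by DESeq2, 5 by limma-voom and 1 among loci modelled on both strands only. The causes were not tested.

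With the replicate block, edgeR called 0 loci (893 at an unadjusted p under 0.05) and the median log2 fold change of the ER genes was 0.07, against -0.25 to 0.03 with a library left out, the last without rhino 2 replicate 1. The deviations of libraries with the same number correlated at 0.207, 0.124 and 0.006 and those of other pairs at -0.173 to 0.008. Rhino 1 replicate 3 correlated at 0.006 with its own number and at 0.008 with rhino 2 replicate 1. Values this close do not decide whether the libraries are paired, and the fit as reported did not treat them as paired. The 36 genes given a fold change by the naming rule had 504 values under the alternatives. Of these, 483 kept their direction and did not pass the threshold, among them SDF2L and ATF5 by DESeq2, which gave them no adjusted p. Another 19 passed it, and 2 reversed, XBP1 (-0.27 to 0.03 with a library left out) and DDIT3 (-0.58 to 0.84). ERN1 and GLYM, named after their values were seen, lie outside the 36 and passed by limma-voom (adjusted p = 0.008 and 0.037). Of the 39 tested ER genes, 9 turned sign with a library left out, as did 25 of the 76 further genes. With no filter, the median of all loci was -0.49. In rhino 2, SDF2L rests on 9 counts, TRIB3 on 12 and SERC on 5.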
